A study of Mus musculus with 16 samples.

Results

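Of 4935 tumour-infiltrating T cells with a productive T cell receptor alpha (TRA) chain, 1343 (27.2%) also carried a non-productive TRA contig, that is, an assembled alpha transcript with a named V and a named J segment that the deposited tables mark as unable to encode a full chain. Members were barcodes called cells with 1 or more productive high-confidence TRA contig and 1 or more such non-productive contig. Where a cell had several, the contig with most UMIs (unique molecular identifiers, which count captured transcripts) stood for each kind. The cells came from tumours that Hepa1-6 cells, a mouse hepatoma line, formed after injection into the left lobe of the liver of C57BL/6 mice. The 8 receptor libraries were 2 each of KO at day 14, CON at day 14, KO at day 5 and CON at day 5 after injection. KO mice carried CD4cre and Matr3 fl/fl, and CON mice carried CD4cre and Matr3 WT/WT, so both genotypes hold the Cre gene driven by Cd4. Matr3 codes for matrin 3, an RNA-binding protein of the nuclear matrix. Only receptor transcripts are listed in these tables, and the loss of Matr3 could therefore not be checked. The 8 single-cell RNA libraries of the series were not analysed here. The labels give no age or sex, and nothing in them tells whether both libraries of a group are from different mice, so the p-values speak of library-to-library spread alone, which may be technical.

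The alpha chain is made by joining 1 of many V segments to 1 of many J segments, and a join that shifts the reading frame or meets a stop codon cannot give a protein. A developing T cell can rearrange both copies of the locus, and on each copy it can replace a first join by joining a V segment farther upstream to a J segment farther downstream. A mature cell can therefore keep a failed join on 1 chromosome while the other gives its receptor, and the failed join is still transcribed, although cells degrade much of the RNA that holds a premature stop. In mouse the J segments lie in descending number, so TRAJ58 lies nearest the V segments and TRAJ2 nearest the constant gene among those read here. Invariant natural killer T (iNKT) cells use TRAV11 joined to TRAJ18. Below, a non-productive contig is called a failed join for short. Among the 1343 members, 198 such contigs were not marked full length and 109 named no constant gene. Some may therefore be incomplete contigs, which was not tested.

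The cells of a clone make the failed join plain, because its cells as a rule descend from 1 cell that already held both joins. For each library, the clonotype with most members is shown by the CDR3 nucleotides of its non-productive chain, where listed, and its productive chain. CDR3 is the loop across the join, and the capitals mark the first and the last codon listed. On a non-productive contig the listed stretch need not start in the frame of its V segment. The non-productive TRAV14-1 bases of CON day 5 replicate 1 start out of frame with the productive TRAV14-1 bases of CON day 14 replicate 1. A productive CDR3 usually runs from a cysteine codon to a phenylalanine codon. KO day 5 replicate 1 had no clonotype with 2 or more members.
KO day 14 replicate 1, productive TRAV7-4/TRAJ5: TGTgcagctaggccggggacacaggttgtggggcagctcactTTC
KO day 14 replicate 2, productive TRAV4-4/TRAJ18: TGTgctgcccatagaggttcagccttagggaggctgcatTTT
CON day 14 replicate 1, non-productive TRAV7-3/TRAJ34: TGTgcagtgagcatcCAA
CON day 14 replicate 1, productive TRAV14-1/TRAJ24: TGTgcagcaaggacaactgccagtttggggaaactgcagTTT
CON day 14 replicate 2, non-productive TRAV6-6/TRAJ23: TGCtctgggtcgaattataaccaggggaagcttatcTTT
CON day 14 replicate 2, productive TRAV5-1/TRAJ27: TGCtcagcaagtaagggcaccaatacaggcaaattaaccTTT
KO day 5 replicate 2, productive TRAV5-4/TRAJ13: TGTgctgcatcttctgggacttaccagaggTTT
CON day 5 replicate 1, non-productive TRAV14-1/TRAJ11: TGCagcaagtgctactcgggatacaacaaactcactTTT
CON day 5 replicate 1, productive TRAV5-4/TRAJ5: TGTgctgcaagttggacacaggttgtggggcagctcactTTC
CON day 5 replicate 2, non-productive TRAV12-2/TRAJ22: TGTgctttgagtatcttcTGG
CON day 5 replicate 2, productive TRAV9-1/TRAJ22: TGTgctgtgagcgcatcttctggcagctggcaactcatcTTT
The 3 libraries with no non-productive line had a contig with no CDR3 listed in those cells, joined as TRAV3-3/TRAJ9 in KO day 14 replicate 1, TRAV12-1/TRAJ32 in KO day 14 replicate 2 and TRAV7-5/TRAJ57 in KO day 5 replicate 2. The non-productive CDR3 of CON day 14 replicate 1 was 18 bases long and was listed as ending in CAA, against 42 bases and TTT for the productive chain of the same 49 cells. In RefSeq on GRCm38, Traj34 lies at chr14:54184699-54184756 and Traj24 at chr14:54195645-54195700, both J segments upstream of the alpha constant gene. An in-frame stop was listed in 3 members, shown with the stop codon in capitals.
CON day 14 replicate 2, non-productive TRAV6-2/TRAJ15: tgtgttctggggTAG
KO day 5 replicate 2, non-productive TRAV6-5/TRAJ22: tgtgctctgggtTGA
CON day 5 replicate 2, non-productive TRAV6-6/TRAJ18: tgcgctctgagtTGA

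Members made up 39.8% and 16.2% of cells with a productive TRA chain in the KO day 14 libraries and 27.5% and 24.9% in the CON day 14 libraries. They made up 27.3% and 28.4% in the KO day 5 libraries and 23.3% and 31.7% in the CON day 5 libraries. The 2 KO day 14 libraries held the highest and the lowest share of the 8, with 95% Wilson intervals of 35.7% to 44.2% and 13.4% to 19.4%, which cover counting error only. A clonotype (cells whose TRA and TRB chains match in V, J and CDR3 nucleotides) of 63 cells, 60 of them members, lay in the higher of these libraries. Day 14 minus day 5 came to -0.545 percentage points (27.1 ± 9.76 against 27.7 ± 3.45, SD, n = 4 libraries each, two-sided exact permutation p = 1). KO minus CON came to 1.05 points (27.9 ± 9.66 against 26.9 ± 3.66, n = 4 each, exact permutation p = 0.889), and -0.933 points without that clonotype. The direction also turned to -4.85 without KO day 14 replicate 1 and to -1.04 without CON day 5 replicate 1. With 36 relabelings of the libraries the smallest p these tests allow is 0.0556, so no contrast between days or genotypes could pass 0.05.

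The libraries held 388 to 1236 cells with a productive TRA chain and 7683 to 31936 UMIs in productive chains, but only 216 to 935 UMIs in the members' non-productive contigs. Among members 56 (4.17%) carried 2 productive TRB chains, which can mark a pair of cells in 1 droplet, against 117 other cells (3.26%). The largest set of such members, 20 cells of CON day 14 replicate 1, shared 1 pair of alpha joins (productive TRAV13-1/TRAJ32, non-productive TRAV6-6/TRAJ40) and the same 2 TRB chains, TRBV13-1 and TRBV29. Barcode strings found in 2 libraries numbered 16, and 0 of them were members in both. CD4 and CD8 T cells cannot be told apart from receptor chains, and a cell with few transcripts cannot be told from one that lacks the second chain.

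In most members the non-productive chain was the weaker of the pair. It had fewer UMIs than the productive chain in 940 members, the same number in 210 and more in 193. The median was 2 UMIs for the non-productive chain and 5 for the productive chain, and 439 members (32.7%) rested on 1 non-productive UMI. The median log2 ratio of non-productive to productive UMIs was -0.76 and -1 in the KO day 14 libraries, -1.22 and -1 in the CON day 14 libraries, -0.58 and -1 in the KO day 5 libraries, and -1 and -1 in the CON day 5 libraries. Thus 8 of 8 libraries lay below 0 (mean -0.95 ± 0.19, SD, n = 8). The two-sided exact sign-flip permutation p was 0.00781, the smallest it can give, and 0.0547 after Benjamini-Hochberg adjustment over 7 such measures, which does not pass 0.05. The adjusted p was 0.0273 among members with 2 or more non-productive UMIs (-0.66), 0.0469 without iNKT-type cells (-0.98) and 0.0469 with each clonotype counted once (-0.95). The unadjusted sign-flip permutation p stayed at 0.00781 in each of these alternatives. In the last 2 a measure dropped out of the adjustment, and in the first another measure also reached 0.00781. These passes thus came from the adjustment and are not stronger evidence.

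**Figure D1:**
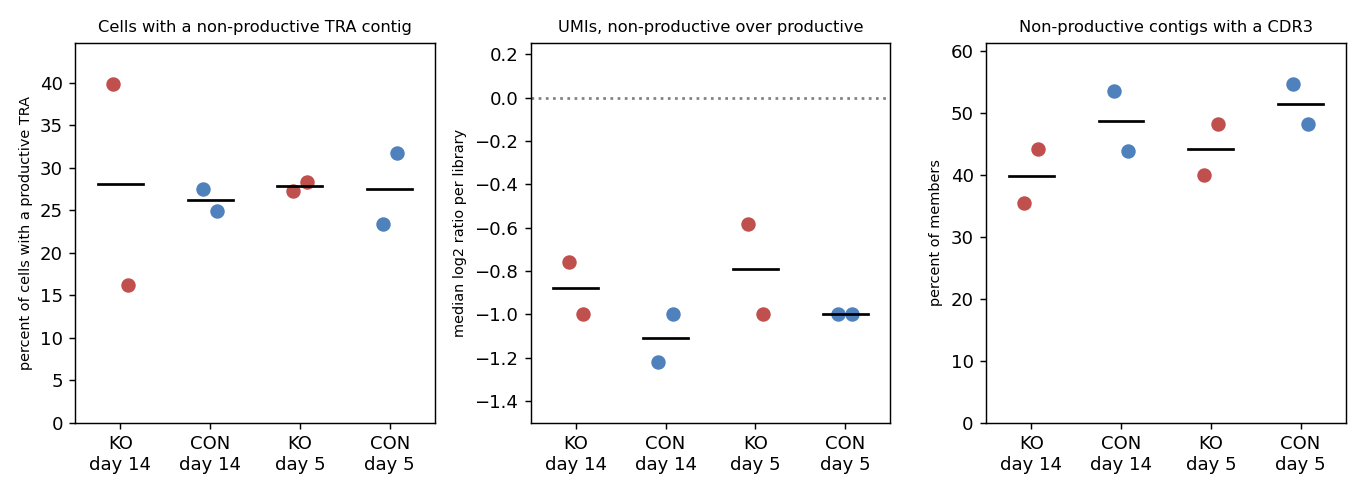
Values of the 8 libraries (points, 2 per group) and group means (lines), with KO in red and CON in blue. Left, members as a percent of cells with a productive TRA chain. Middle, median log2 ratio of non-productive to productive UMIs, with 0 dotted; all 8 points lie below 0. Right, percent of members whose non-productive contig lists a CDR3, from 35.5% to 54.6%.

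The gap was wider than between 2 productive chains of a cell. In members the weaker of the 2 alpha chains stood at a mean log2 ratio of -1.29 ± 0.11 to the stronger (n = 8 libraries), against -0.80 ± 0.09 in cells with 2 productive alpha chains. The difference of -0.49 was below 0 in 8 of 8 libraries (exact sign-flip permutation p = 0.00781, the smallest possible). This measure was added after the data were seen. The members here include contigs with no constant gene named or not marked full length, which may be incomplete. The difference was not computed without such contigs. No difference in UMIs of the productive chain was called between the kinds of cell. The mean log2 UMIs of members minus other cells was 0.07 (2.14 ± 0.20 against 2.07 ± 0.23, n = 8, higher in 6 of 8, exact permutation p = 0.117, adjusted p = 0.205). With 2 or more non-productive UMIs required of members it was 0.31 and passed (exact sign-flip permutation, adjusted p = 0.0273). That requirement moves the 439 members with 1 non-productive UMI to the other cells. Choosing cells by the UMIs of 1 alpha chain can itself raise those of the other, so no conclusion is drawn from this pass. Contigs with no constant gene named, found in 109 members, had the lowest mean log2 ratio to the productive chain of the kinds of contig compared, -2.42 ± 0.34 (n = 8). The ratio averaged -1.18 ± 0.27 where a CDR3 was listed and -0.84 ± 0.14 where none was (n = 8 each). It averaged -0.70 ± 0.26 in iNKT-type members and -1.05 ± 0.20 in the rest; these splits were not tested.

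Most non-productive contigs were long enough to span the chain, since 1145 of 1343 (85.3%) were marked full length, yet 626 (46.6%) had a CDR3 listed. A CDR3 listed on a non-productive contig need not start in the frame of its V segment. Its end and length are therefore set beside those of productive loops as description only. The listed loops ended in phenylalanine in 382 members (61%), against 96.8% of the same cells' productive chains. Their lengths spread far more widely, from 5 to 32 residues with a median of 13 (SD 4.72), against 9 to 18 with a median of 14 (SD 1.25) for productive chains. Loops of 8 residues or fewer made up 151 of the 626, against 0 of the productive chains. CON day 14 replicate 1 held 82 of those 151, and its 49-cell TRAV7-3/TRAJ34 set, of 18 bases, is among them.

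The V segment went with whether a CDR3 was listed. It was listed for 25 of 25 members whose failed join used TRAV11, 62 of 63 with TRAV7-3, 93 of 111 with TRAV6-7 and 65 of 83 with TRAV6-6. At the other end were 2 of 44 with TRAV13-2, 3 of 42 with TRAV13-3 and 28 of 131 with TRAV3-3. Cells of 1 clone share the join, so these counts are not of independent joins. A single clonotype gave 49 of the TRAV7-3 cells, 60 of the TRAV3-3 cells, 34 of the TRAV6-7 cells and 19 of the TRAV13-3 cells. Of the TRAV6-6 cells, 15 were a single clonotype and 20 more shared 1 pair of alpha joins. A CDR3 was listed in 35.5% and 44.2% of members in the KO day 14 libraries, 53.5% and 43.9% in the CON day 14 libraries, 40% and 48.2% in the KO day 5 libraries, and 54.6% and 48.2% in the CON day 5 libraries. KO minus CON was -8.09 points (42.0 ± 5.46 against 50.1 ± 4.98, n = 4 each, exact permutation p = 0.167, adjusted p = 0.648), with the ranges overlapping. Day 14 minus day 5 was -3.47 points (44.3 ± 7.37 against 47.8 ± 5.99, exact permutation p = 0.389), and 0.332 without the 63-cell clonotype.

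The 2 joins of a cell lay near each other along the J segments. Across 1340 members with 2 TRAJ numbers, Pearson's r between the J number of the non-productive and that of the productive chain was 0.69, and Spearman's rho was 0.66. These are descriptions across cells that share libraries and clones. With each clonotype taken once r was 0.65 (n = 957), and 0.67 without iNKT-type cells as well (n = 765). Within libraries it ran from 0.40 in KO day 5 replicate 2 to 0.84 in KO day 14 replicate 1. The median distance was 7 J numbers, and 4.18% of members used the same J segment on both chains.

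In steps along the locus, members with a productive chain at TRAJ1 to TRAJ10 had a mean non-productive J number of 12.2. That mean was 21.6 for a productive chain at TRAJ11 to TRAJ20, 23.9 at TRAJ21 to TRAJ30, 33.9 at TRAJ31 to TRAJ40, 40.7 at TRAJ41 to TRAJ50 and 46.2 at TRAJ51 to TRAJ61. At TRAJ1 to TRAJ10, 60 of the 160 cells were a single clonotype, and library means ran from 10.4 to 21.6. With each clonotype taken once the mean of that step was 14.5 (n = 75). The V segments tracked each other less, with r = 0.24 for their distance from the J segments, and from -0.08 to 0.45 within libraries.

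**Figure D2:**
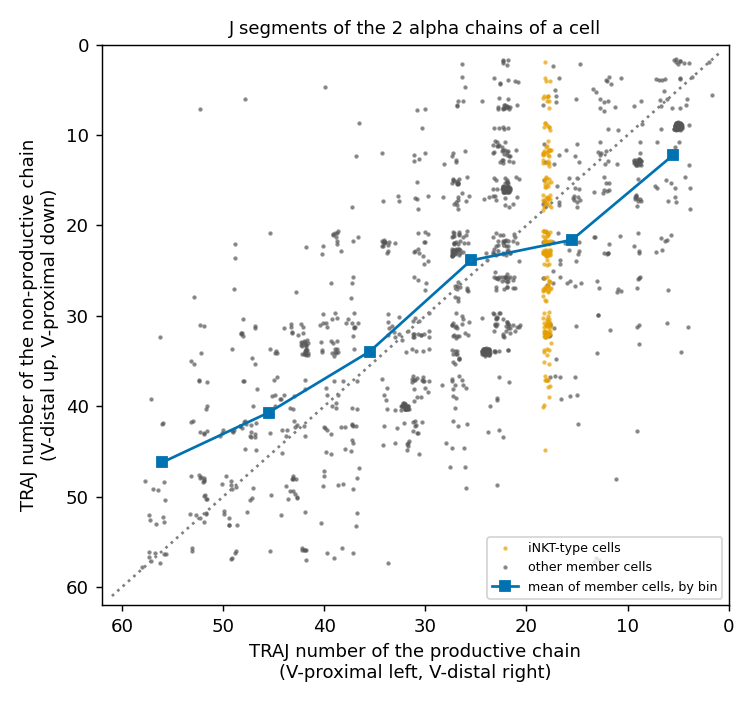
TRAJ number of the non-productive chain (vertical) against that of the productive chain (horizontal) in 1340 member cells, jittered so that clones show as dense spots; both axes run from V-near to V-far segments. The dotted line marks equal numbers and the squares the mean of each step of productive J, from 12.2 to 46.2; iNKT-type cells (orange) share TRAJ18 on the productive chain and spread from 2 to 45 on the other.

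No difference in average position along the locus was called between the chains. The mean J number was 26.5 ± 2.31 on the non-productive chain and 25.7 ± 2.66 on the productive chain (n = 8 libraries). The difference within cells was 0.57 and 0.36 in the KO day 14 libraries, 1.53 and -2.47 in the CON day 14 libraries, 1.53 and 3.05 in the KO day 5 libraries, and 0.64 and 0.81 in the CON day 5 libraries. It was above 0 in 7 of 8 libraries (mean 0.751, exact sign-flip permutation p = 0.227, adjusted p = 0.264), and -0.0495 without iNKT-type cells. The non-productive V segment lay 907 ± 57.8 kb upstream of the first J segment and the productive one 876 ± 97.8 kb. That difference of 30.9 kb (exact sign-flip permutation p = 0.313, adjusted p = 0.313) turned to -29.1 kb without iNKT-type cells. Positions are those of RefSeq genes on GRCm38, with the copy of a duplicated V segment taken as the tables name it. By day, the J difference of day 14 minus that of day 5 was -1.51 (-0.00467 ± 1.72 against 1.51 ± 1.10, exact permutation p = 0.167, adjusted p = 0.833). By genotype, it was 1.25 higher in KO (1.38 ± 1.23 against 0.126 ± 1.77, exact permutation p = 0.389, adjusted p = 0.648).

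Against cells in which no failed join was read, members had a lower mean J number on the productive chain, short of the threshold. Those other cells include 559 with 2 productive TRA chains, which the rule makes rare among members. The mean J number was 25.7 ± 2.66 in members and 28.6 ± 2.76 in other cells, a difference of -2.91 ± 2.13 (n = 8), below 0 in 7 of 8 libraries with CON day 5 replicate 1 as the exception. The exact sign-flip permutation p was 0.0156 and the adjusted p 0.0547, so the call does not pass 0.05. The difference was largest in KO day 14 replicate 1 (-6.37), which holds a TRAJ5 clonotype of 63 cells, 60 of them members. Next came CON day 14 replicate 2 (-4.75), which holds a TRAJ50 clonotype of 111 cells, 0 of them members.

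TRAJ18 and TRAV11, the pair that makes the iNKT receptor, were used less on the failed chain than on the members' productive chain. On the productive chain, the iNKT-type cells, 18.3% of members on average, hold both by definition. On the non-productive chain they averaged 1.62% and 1.93%, which is not low beside, for example, TRAJ39 (1.45%) and TRAV9-1 (1.16%). TRAJ18 made up 0% to 4.1% of non-productive chains (median 1.38%) and 2.35% to 35.7% of the members' productive chains (median 22.0%), that is, -3.38 ± 0.61 (SE) as a log2 fold change with edgeR adjusted p = 4.22e-06. TRAV11 made up 0% to 5.00% (median 1.37%) against 2.35% to 34.8% (median 18.8%), that is, -2.97 ± 0.62 (SE) as a log2 fold change with edgeR adjusted p = 7.79e-05. TRAJ5 made up 0% to 1.00% (median 0.256%) against 0% to 31% (median 1.5%), that is, -2.64 ± 0.83 (SE) as a log2 fold change with edgeR adjusted p = 0.0357. These 3, each lower on the non-productive chain, were the calls among 71 segments tested with edgeR's quasi-likelihood test with library as a block (4.23%).

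The calls depended on which cells entered. Without iNKT-type cells no segment passed, with 12 of 70 at an unadjusted p under 0.05. TRAJ18 then stood at -0.41 and TRAV11 turned to 3.54 (edgeR adjusted p = 0.0518), while TRAJ5 kept its size at -2.63 (edgeR adjusted p = 0.0518). Productive TRAV11 and TRAJ18 define the iNKT-type cells. Leaving these cells out took 197 of the members' 198 productive TRAV11 chains and kept the 25 non-productive ones. The turn of TRAV11 is therefore set by the definition, as is much of the change in TRAJ18. TRAJ5 stood at -1.35 without the 63-cell TRAV7-4/TRAJ5 clonotype of KO day 14 replicate 1 (edgeR adjusted p = 0.384). It also missed the threshold, at a size near that of all libraries, without CON day 5 replicate 1 (-2.53, edgeR adjusted p = 0.0561) or CON day 5 replicate 2 (-2.84, edgeR adjusted p = 0.0715).

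The other segments with the smallest p did not pass in that test. TRAV13-3 stood at 2.50 (2.56% ± 2.29 of non-productive chains against 0.529% ± 0.752 of productive chains, SD, n = 8) and TRAV6-7 at 1.64 (7.04% ± 4.52 against 2.28% ± 1.53). TRAJ34 stood at 1.68 (6.24% ± 5.8 against 2.02% ± 2.38), TRAJ32 at 1.65 (5.37% ± 2.89 against 1.8% ± 2.04) and TRAV9-1 at -1.75 (1.16% ± 0.738 against 4.24% ± 2.80). Their edgeR adjusted p lay at 0.0507 for TRAV13-3 and 0.0527 for the other 4. With each clonotype counted once, 9 of 63 segments passed, 6 higher and 3 lower on the non-productive chain. They included TRAJ32 (log2 fold change 1.83, edgeR adjusted p = 0.00113), TRAV13-3 (2.14, edgeR adjusted p = 0.0280) and TRAV6-7 (1.15, edgeR adjusted p = 0.0280). Without iNKT-type cells, with every cell counted, these 3 stood at 1.11, 2.11 and 1.41 (edgeR adjusted p = 0.363, 0.227 and 0.227). Shares of a chain sum to a whole, so many productive TRAV11 and TRAJ18 chains leave less for other segments. The median log2 fold change over all segments was 0.34, and 0.11 without iNKT-type cells.

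**Figure D3:**
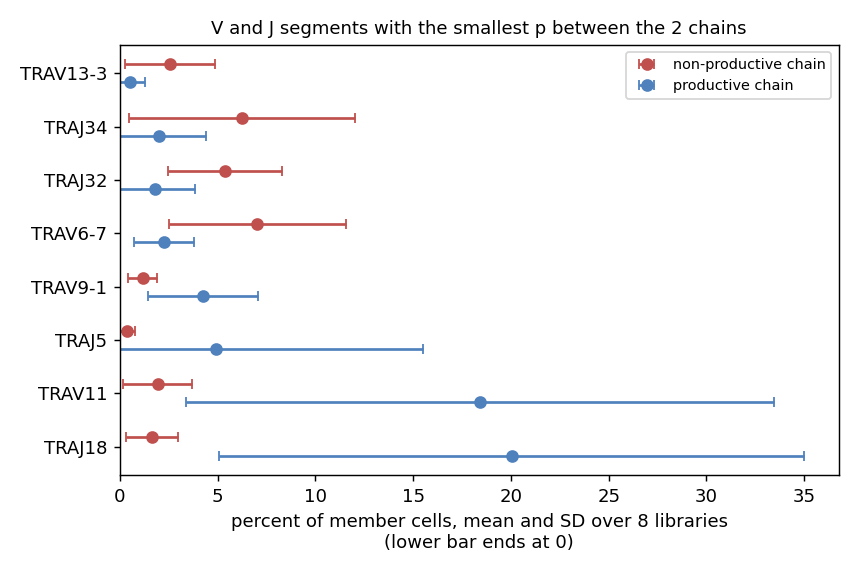
Percent of member cells whose non-productive (red, upper point) or productive (blue, lower point) alpha chain used each of the 8 segments with the smallest p between the chains, as mean and SD over 8 libraries. TRAJ18 and TRAV11 stand near 20.03% and 18.4% of productive chains against 1.62% and 1.93% of non-productive chains, and the SD of TRAJ5 on the productive chain includes 1 library at 31%.

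By position, J segments far from the V segments (TRAJ1 to TRAJ20) made up 31.5% ± 7.76 of non-productive and 38.8% ± 15.2 of productive chains of members (n = 8). Of their 13 tested segments 0 were called higher and 2 lower, with a median log2 fold change of 0.86, against 0.34 over all 71 tested. TRAJ18 and TRAJ5 were the 2, and without iNKT-type cells the median of 12 was 0.46 against 0.11 over all 70. Middle J segments (TRAJ21 to TRAJ39) made up 50.8% ± 4.69 against 44.0% ± 13.3, with 0 of 14 called and a median of 0.34. J segments near the V segments (TRAJ40 to TRAJ61) made up 17.4% ± 4.87 against 17.2% ± 4.59, with 0 of 11 called and a median of 0.08. V segments near the J segments (TRAV15 to TRAV21) made up 5.09% ± 2.05 against 4.95% ± 3.63, and the far pair TRAV1 and TRAV2 1.86% ± 1.33 against 1.40% ± 1.13. A single segment of each of these V lists reached 20 chains, TRAV16 (-0.49) and TRAV2 (-0.04), and neither was called.

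The non-productive repertoire showed no called change with day or genotype. Of 52 segments tested with edgeR, 0 (0.0%) passed for day 14 against day 5, with 2 at an unadjusted p under 0.05 and 0 passing with DESeq2. TRAJ34 (log2 fold change 1.96, SE 0.77) and TRAJ6 (-1.79, SE 0.90) had the smallest p, at edgeR adjusted p = 0.580 and 0.876. For KO against CON, 0 of 52 (0.0%) passed, again with 2 at an unadjusted p under 0.05 and 0 with DESeq2. TRAJ9 (2.25, SE 0.88) and TRAV10 (1.87, SE 0.92) had the smallest p, at edgeR adjusted p = 0.585 and 0.900. Productive chains of the same cells held 4.55% ± 2.72 iNKT-type joins at day 14, against 32.1% ± 2.47 in the day 5 libraries (SD, n = 4 each). On the non-productive chain TRAJ18 stood at -1.62 ± 0.83 (SE) in log2 for day 14 over day 5, with edgeR adjusted p = 0.876, not called.

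The iNKT-type members show failed joins around a fixed productive one. There were 197, and they made up 18.3% ± 14.9 of members against 15.8% ± 12.7 of other cells (n = 8), a difference of 2.53 points (6 of 8 libraries above 0, exact sign-flip permutation p = 0.0625, adjusted p = 0.146). That difference was -0.135 where non-productive contigs needed 2 or more UMIs. In RefSeq on GRCm38, Trav11 lies at chr14:53519303-53519859 and Traj18 at chr14:54200777-54200842. Of 196 with a TRAJ on the failed chain, 125 used a J nearer the V segments than TRAJ18, 7 used TRAJ18 itself and 64 used one farther away. The mean J number was 22.4 ± 9.05 (SD over cells), with a range of 2 to 45, and library means ran from 21.6 to 25.3. The 96 other members with a productive J from TRAJ15 to TRAJ21 had a mean of 21.3 ± 9.51.

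The V segment of the failed chain lay farther upstream than the productive TRAV11 in 158 of 196 iNKT-type members. TRAV11 as named lies 635.7 kb upstream of the first J segment, nearer than the mean of 907 kb for non-productive V segments of all members. A V segment farther upstream is thus not particular to these cells, and the count was not tested. The duplicate TRAV11D, at 1331 kb, was named on none of their productive chains. No iNKT-type member used TRAV11 on the failed chain, 0 of 197, which allows a share of up to 1.52%. TRAJ23 (22 cells), TRAJ32 (18) and TRAJ12 (14) were the most used J segments there, and TRAV3-3 (15), TRAV12-2 (12) and TRAV13-2 (12) the most used V segments. A MAIT-type join (TRAV1 with TRAJ33, of mucosal-associated invariant T cells) was found in 1 member and 3 other cells.

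Cells of a clone shared the failed join. Among pairs of members of the same clonotype, 4373 of 4392 (99.6%) had the same non-productive V and J, against 216 of 119076 pairs (0.181%) of different clonotypes in the same library. Of those 216, 96 were between the 2 clonotypes of CON day 14 replicate 1 that differ in which of 2 shared TRB chains stood first. Of 97 clonotypes with 2 or more members, 92 showed a single non-productive V and J. Where both cells of such a pair listed a CDR3, its nucleotides were identical in 2137 of 2139 pairs. Pairs of cells are not replicates, and large clones give most pairs, so these are descriptions.

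In KO day 14 replicate 1, TRAV3-3/TRAJ9 was read in 60 of 63 cells of the TRAV7-4/TRAJ5, TRBV20 clonotype (95.2%, Wilson interval 86.9% to 98.4%), with a median of 5 UMIs against 5.5 for the productive chain. In CON day 14 replicate 1, TRAV7-3/TRAJ34 was read in 49 of 98 cells of the TRAV14-1/TRAJ24, TRBV19 clonotype (50%, 40.3% to 59.7%), with a median of 2 UMIs against 13. The mean log2 ratio was -0.23 ± 1.14 in the first and -2.80 ± 1.02 in the second (SD over 60 and 49 cells). Among cells where it was read, the failed join thus had nearly as many UMIs as the productive one in the first clone and far fewer in the second, each measured in a single library. In CON day 14 replicate 2, TRAV6-6/TRAJ23 was read in 15 of 45 cells of the TRAV5-1/TRAJ27 clonotype (33.3%, 21.4% to 47.9%). The other named clonotypes were small, with 4 of 11 cells in KO day 14 replicate 2, 3 of 3 in KO day 5 replicate 2, 2 of 10 in CON day 5 replicate 1 and 6 of 15 in CON day 5 replicate 2.

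Large clonotypes differed in which second alpha chain their cells carried. Some of them hold the same set of chains and may each be part of a larger clone: in 3 pairs of clonotypes the TRB chain was the same and the 2 productive alpha chains swapped places as the chain with most UMIs, and 1 pair shared the alpha chains while its cells carried both TRB chains. Joining such pairs turns the 35 clonotypes of 10 or more cells into 31 sets. Of the 35, 28 had no cell with 2 productive alpha chains, and 300 of their 693 cells (43.3%) were members. In 26 of the 28 a failed join was read, in 8.33% to 95.2% of cells, and in 25 of these 26 all members shared 1 non-productive V and J. The remaining 2, both of CON day 14 replicate 1, had none in 21 and 18 cells, which allows shares of up to 14.3% and 16.7%. In the other 7 clonotypes, which the joining turns into 4 sets, 237 of 337 cells had 2 productive alpha chains and 8 (2.37%) were members, with 1 or more in each of the 4 sets. The rule bears on this contrast, since a member with 2 productive alpha chains needs 3 alpha contigs. In those 8 the non-productive contig had the V and J of the clone's second productive chain.

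**Figure D4:**
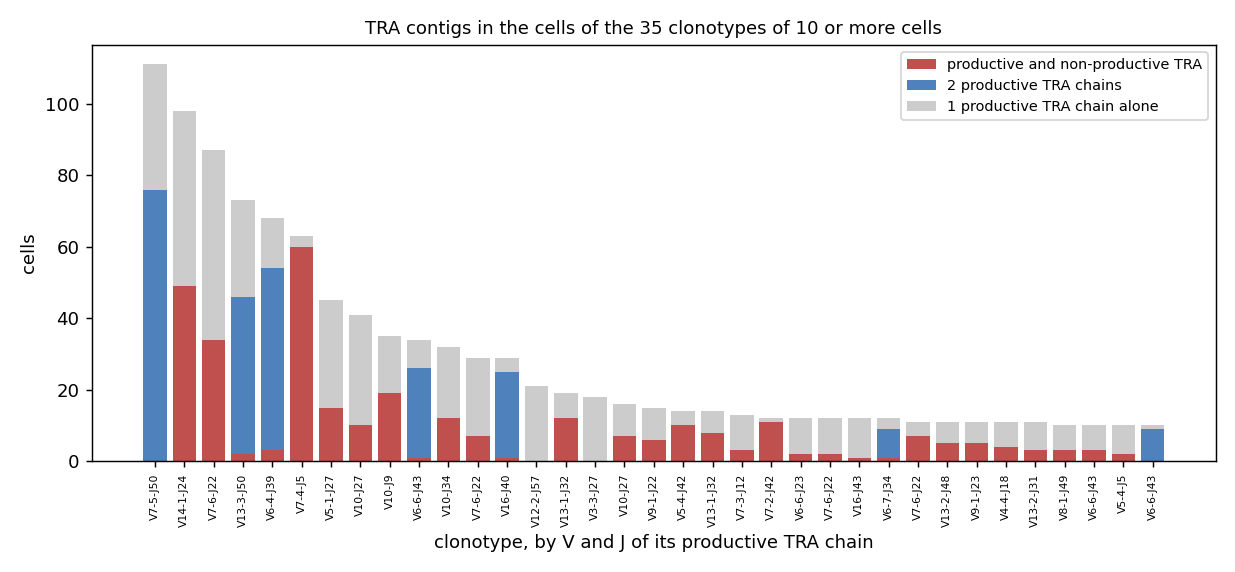
Cells of the 35 clonotypes of 10 or more cells (horizontal, by V and J of the productive alpha chain, largest left), split into members (red), cells with 2 productive alpha chains (blue) and cells with 1 productive alpha chain alone (grey). The 7 clonotypes with blue cells hold 8 red cells among their 337, in 5 of the 7, and the other 28 hold 300 red cells among 693.

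Few members had a second productive alpha chain, which the rule itself makes rare because it takes 3 alpha contigs. A second productive alpha chain was found in 4 of 1343 members and in 559 of 3592 other cells. The share was 0% to 0.588% of members and 7.82% to 24.5% of other cells across libraries, which is a description with no test. No barcode held 3 or more productive TRA or TRB chains, and 13 members held 3 or more TRA contigs. Of the 173 barcodes with 2 productive TRB chains, 4 (2.31%) held 3 or more TRA contigs. A limit on chains per barcode in the upstream assembly was not tested.

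Few non-productive contigs had the V and J of a productive chain read beside the same TRB chain. None of the 1343 members had the V and J of its own productive chain on the non-productive contig, which allows a share of up to 0.223%. Of 579 members whose TRB chain occurred in other cells, 13 (2.25%) had a non-productive V and J that was productive in another cell with that TRB chain. Those 13 had at most 3 UMIs, 6 of them 1 UMI. A CDR3 was listed in 12 of the 13, and 7 were not marked full length. Whether these contigs are failed joins or incomplete copies of a working join was not tested.

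Large clonotypes with the same V and J segments in both chains carried different failed joins where these could be compared. TRAV7-6/TRAJ22 paired with TRBV5/TRBJ2-7 formed 4 clonotypes of 10 or more cells in 3 libraries, with 50 members of 139 cells. Their failed joins were TRAV6-7/TRAJ16, TRAV14-2/TRAJ7, TRAV9-2/TRAJ2 and TRAV9-2/TRAJ12, 1 for each clonotype. TRAV10/TRAJ27 with TRBV12-1/TRBJ2-5 formed 2 clonotypes, with TRAV3-3/TRAJ15 in one and TRAV12-1/TRAJ21 in the other. TRAV6-6/TRAJ43 with TRBV13-1/TRBJ1-1 also formed 2 clonotypes, of 44 cells together, but held 1 member, so no failed joins could be compared. Over all sizes, 5 receptors with identical CDR3 residues in both chains occurred in 11 member clonotypes, and each of the 5 had as many failed joins as clonotypes.

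No difference in clone size was called between members and other cells. In paired cells of KO day 14, 69.3% and 45.7% of members lay in clonotypes of 2 or more cells, against 45.7% and 51.9% of other cells. In CON day 14 the shares were 70.4% and 68.6% of members against 63.4% and 64.5% of other cells. In KO day 5 they were 0% and 5.71% of members against 5.65% and 1.11%, and in CON day 5 6.54% and 24.2% against 3.77% and 10.1%. The difference was 5.55 ± 9.83 points (n = 8, above 0 in 6, exact sign-flip permutation p = 0.164, adjusted p = 0.230). It was 3.19 points higher at day 14 than at day 5 (7.15 ± 12.4 against 3.95 ± 8.10, exact permutation p = 0.778), and -4.27 without KO day 14 replicate 1. KO minus CON was -2.91 points (4.09 ± 13.9 against 7.01 ± 5.05, exact permutation p = 0.722), with the sign turned, to 4.55, without KO day 14 replicate 2.

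Between productive chains of members and of other cells, 2 of 78 segments passed in edgeR (2.56%), both lower in members. TRAV7-5 made up 0% to 2.78% of members (median 0.534%) and 1.63% to 23.8% of other cells (median 2.29%), that is, -2.31 ± 0.51 (SE) as a log2 fold change with edgeR adjusted p = 0.00314. TRAJ50 made up 0% to 2.11% against 0.446% to 20.8% (medians 0.691% and 1.03%), that is, -2.57 ± 0.58 (SE) as a log2 fold change with edgeR adjusted p = 0.00314. In CON day 14 replicate 2 a clonotype of 111 cells with TRAV7-5/TRAJ50 held 76 cells with 2 productive alpha chains and 0 members, which allows a share of up to 2.70%. Without that library neither passed (TRAV7-5 at -1.52 and TRAJ50 at -1.505, edgeR adjusted p = 0.121 and 0.175). TRAJ50 also missed the threshold without KO day 14 replicate 2, at a similar size (-2.39, edgeR adjusted p = 0.137). With each clonotype counted once 0 segments passed, and TRAV7-5 stood at -1.28 and TRAJ50 at -0.85. With DESeq2 0 passed as well, at sizes near those of edgeR (-2.18 and -2.11). Each of these 2 alternatives had 4 segments at an unadjusted p under 0.05.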

How the data were processed

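The deposited tables, 1 per library, list assembled receptor contigs with whole-number counts of UMIs and reads per contig, not normalized, per the file headers. Contig length in bases is another deposited value. The submitters' processing notes name Cell Ranger 3.1.0, Seurat 4.0.0, CASAVA 1.8 and R 4.1.2 and build GRCm38 (mm10), without roles. All read numbers were even, so UMIs were used.

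TRAV copies of the duplicated locus were merged by name (90 names to 47); all 90 had a RefSeq position (GRCm38.p6). Clonotypes needed matching V, J and CDR3 nucleotides in TRA and TRB. Doublets were kept, except in an alternative that left out barcodes having at least 2 productive TRB chains or at least 3 TRA. For library values, two-sided exact permutation tests were used, with labels permuted within genotype or day (36 relabelings), or signs flipped over 8 libraries (256), with Benjamini-Hochberg adjustment over 5 or 7 measures. Alternatives that left a measure undefined were adjusted over the measures that remained. Segment counts were tested with edgeR 4.0.16 in R 4.3.3 (chain totals as offset, 20 or more chains, adjusted over all segments, threshold 0.05). DESeq2 1.42.0 was an alternative. Scripts were tested on simulated data. The named segments are those past the threshold, or the 8 with the smallest p; of clonotypes, that with most members per library. Replicate numbers were not treated as pairs. The members and lists were chosen with earlier results of these data known. Intervals are 95% Wilson intervals, and a count of 0 allows up to 3 counts.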

Additional observations from a re-analysis of the deposited data

Results flagged for a closer look

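A non-productive TRA contig was also read in 296 cells with no productive TRA chain, which the comparisons above leave out (296 of 5908 cells called, 5.01%, Wilson interval 4.48% to 5.60%). All 296 had a productive TRB chain, and the median was 2 UMIs. The share was 5.09% and 5.01% in the KO day 14 libraries, 4.42% and 4.73% in the CON day 14 libraries, 6.65% and 5.27% in the KO day 5 libraries, and 7.02% and 3.37% in the CON day 5 libraries. No library stood apart from the other 7 in any of 10 measures checked for it.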

How the results depend on the processing

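Under the alternatives, 349 recomputed values that answer a comparison kept their direction and their side of the threshold. Another 17 turned direction, 11 became stronger and 5 weaker, by the threshold or by the number of segments called. Permutation contrasts between days or genotypes could not pass 0.05, so their keeping to 1 side of it says little. Requiring 2 non-productive UMIs brought the UMI ratio past the threshold (-0.66), as it did the productive UMIs of members minus others (0.31). Choosing members by UMIs can itself raise the latter. The requirement also turned day 14 minus day 5 in member share to 0.753 and the iNKT-type difference to -0.135. It gave 8 segments between the chains. Without iNKT-type cells the UMI ratio passed at -0.98, the J difference was -0.0495, the V difference -29.1 kb, TRAV11 turned to 3.54, the member share by day was 0.652 and 0 segments were called between the chains. The turn of TRAV11 follows from how those cells are defined. With each clonotype counted once the UMI ratio passed at -0.95, KO minus CON in member share was -0.0385, and 9 segments were called between the chains but 0 between members and other cells. DESeq2 also gave 0 there. Where the UMI ratio passed, its unadjusted p was unchanged and only the adjustment differed. Without possible doublets 7 were called between the chains, and without the largest member clonotype 7. Without that clonotype, chosen after the data were seen, the CDR3 share by day was 0.332, the expanded share difference by day -0.235 and the member share by genotype -0.933.

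Leaving out each library gave 2 to 7 segments between the chains and 1 to 3 between members and other cells. It gave ranges of -6.45 to 5.36 for member share by day, -4.85 to 6.96 for member share by genotype, -0.20 to 0.00508 for the UMI ratio by day, and -4.27 to 10.7 and -10.4 to 4.55 for the expanded share difference by day and by genotype. The J difference ran from -2.51 to -0.513 by day, 0.252 to 2.25 by genotype and 0.422 to 1.21 against 0, and the V difference from 17.3 to 50.01 kb. Replicate numbers shared by groups deviated together with correlations of 0.172, 0.124, 0.275 and 0.0491, so they were not taken as pairs. With a replicate block, KO minus CON in CDR3 share was -8.09 (p = 0.375, exact permutation), 0 segments were called by day or genotype, and no call changed. High confidence and an explicit False in the productive field held for every contig used, so those settings changed nothing. Depth limits the rest: 32.7% of members rest on 1 non-productive UMI.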
